A study of Drosophila melanogaster with 2 samples.

Results

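The cytosolic ribosomal protein genes of Drosophila melanogaster were taken as the protein-coding genes whose symbol starts with RpL or RpS and a digit, together with RpLP0, RpLP1, RpLP2 and sta. The rule gave 92 genes of 13968 protein-coding genes on the chromosome arms, 53 for the large and 39 for the small ribosomal subunit. Their binding by CG4404, an uncharacterised fly protein, was read from chromatin immunoprecipitation and sequencing (ChIP-seq) of whole embryos aged 0 to 4 hours. All embryos came from 1 transgenic line that expresses CG4404 fused to enhanced green fluorescent protein (eGFP), and chromatin was precipitated with an antibody against GFP. There were 2 biological replicates of 1 group, and no control or input library was analysed here, so binding rests on the peak calls the authors deposited. The labels describe an inserted transgene and do not say whether it adds to the native gene, and in whole embryos the cells that contribute a peak cannot be told apart.

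Ribosomal proteins assemble with ribosomal RNA into the small subunit, which decodes messenger RNA, and the large subunit, which forms peptide bonds. Their genes are among the most strongly transcribed in growing cells, and in flies the loss of 1 copy of many of them gives the Minute phenotype of slow development and short bristles. The genes are spread over the genome, and the ribosome needs their products in matched amounts. Fly ribosomal protein promoters are known for a start site that lies in a run of pyrimidines (the TCT initiator) in place of the usual initiator, and some carry the DNA replication-related element (DRE), which is bound by Dref, or the Ohler 1 motif, which is bound by M1BP. The early embryo begins with ribosomes and transcripts supplied by the mother and turns on its own genome within the period sampled.

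The sequences of 4 divergent pairs are shown first, RpL34b because it had the highest signal, RpS27 and RpL14 because the shared stretch is short, and RpS25 because it holds the motifs described further on. All coordinates are those of dm6. The stretches between divergent transcription start sites (TSSs) run at RpL34b from CG8132 (chr3R:9401226-9401495), at RpS27 from Nup37 (chr3R:25247514-25247658), at RpL14 from Nelf-E (chr3L:8600879-8601006) and at RpS25 from CG4820 (chr3R:11216287-11216535). Each is read 5′ to 3′ towards the ribosomal protein gene, on the plus strand for RpL14 and the minus strand for the others, and ends at the gene's TSS. Capitals mark the DRE (TATCGATA), the shorter word CGATA, known from binding of the boundary protein BEAF-32, and the word TGGTATTT, each on either strand.
RpL34b: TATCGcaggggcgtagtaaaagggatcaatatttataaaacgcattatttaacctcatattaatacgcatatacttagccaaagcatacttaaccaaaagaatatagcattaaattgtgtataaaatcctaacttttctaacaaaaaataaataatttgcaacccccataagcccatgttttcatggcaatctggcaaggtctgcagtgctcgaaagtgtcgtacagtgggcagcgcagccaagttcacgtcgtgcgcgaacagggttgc
RpS27: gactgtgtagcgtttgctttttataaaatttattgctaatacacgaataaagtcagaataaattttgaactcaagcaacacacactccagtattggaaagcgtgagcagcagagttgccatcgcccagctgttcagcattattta
RpL14: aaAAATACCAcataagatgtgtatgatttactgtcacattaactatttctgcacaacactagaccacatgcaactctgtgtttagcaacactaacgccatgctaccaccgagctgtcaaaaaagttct
RpS25: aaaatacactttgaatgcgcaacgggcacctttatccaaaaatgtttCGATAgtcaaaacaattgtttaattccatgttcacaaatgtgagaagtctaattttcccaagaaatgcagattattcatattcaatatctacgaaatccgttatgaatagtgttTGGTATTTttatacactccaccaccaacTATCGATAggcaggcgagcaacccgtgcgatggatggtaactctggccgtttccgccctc
The summit lay 120 bp before the last base at RpL34b, 31 bp before it at RpS27, 77 bp before it at RpL14 and 27 bp before it at RpS25. No DRE lies in the first 3 stretches, while the stretch at RpS25 holds 1 close to the gene.

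A gene was called bound when the summit of a pooled peak that passed the authors' threshold on the irreproducible discovery rate (IDR, an estimate of the share of peaks that would not recur) lay no farther than 500 bp from any TSS of the gene. By this rule 36 of the 92 ribosomal protein genes were bound, which is 39.1% (95% Wilson interval 29.8% to 49.3%, counting error only), beside 14.2% of all protein-coding genes. The conservative pooled list gave 35 of them, beside 13.9% of all protein-coding genes, and the gene it left out was RpL27A. In the list of replicate 1 alone 29 were bound, beside 12.9% of all genes, and in that of replicate 2 there were 24, beside 10.2%. The mean over the replicates was 26.5 ± 3.54 genes (SD, n = 2), or 28.8% ± 3.84 of the 92. Each list thus held a larger share of ribosomal protein genes than of all genes. Bound genes are not independent of each other or of their neighbours, and no test of this difference was made.

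Recurrence between the replicates was partial. Of the 36 genes, 21 were bound in both replicate lists, 7 in that of replicate 1 but not of replicate 2, and 3 in that of replicate 2 but not of replicate 1. RpS10b, RpL4, RpLP0, RpS15Aa and RpL35 were bound in the pooled list and in neither replicate list. RpL7A was bound in the replicate 1 list only and did not pass the threshold in the pooled data. The strongest peak of 21 genes overlapped thresholded peaks of both replicates by at least 1 bp. When only such pooled peaks were kept, 21 of the 36 genes stayed bound, and 1292 of all 1984 bound protein-coding genes did.

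The signal is the value the authors' peak caller gave each peak. Its scale is not stated, so it is compared only within a list. RpL34b, whose product is a protein of the large subunit, had the highest value, with 517 in the pooled list, 304 in replicate 1 and 227 in replicate 2. RpL32, a large-subunit gene long used as a reference transcript in fly work under the name rp49, had 413 in the pooled list, 232 in replicate 1 and 184 in replicate 2. RpS27, which encodes a zinc-binding protein of the small subunit, had 341 in the pooled list, 184 in replicate 1 and 139 in replicate 2. These 3 genes were thus led by RpL34b in the pooled data and in each replicate, and their peaks ranked 197, 292 and 426 among the 3835 peaks of the pooled list on the arms.

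RpS20, a protein of the head of the small subunit, had 336 in the pooled list, 155 in replicate 1 and 168 in replicate 2. RpL7 had 287 in the pooled list, 156 in replicate 1 and 132 in replicate 2. RpL26, which lines the exit of the tunnel for the growing peptide, had 266 in the pooled list, 145 in replicate 1 and 132 in replicate 2. RpS20 was the highest of these in the pooled list and in replicate 2, and just below RpL7 in replicate 1. RpL23A, another protein at the tunnel exit, had 264 in the pooled list, 152 in replicate 1 and 115 in replicate 2. RpL10Ab had 244 in the pooled list, 131 in replicate 1 and 96.5 in replicate 2. RpL23A stood above RpL10Ab in the pooled list and in each replicate. Pooled values over 200 occurred at 9 genes in all.

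RpL14 had 191 in the pooled list, 121 in replicate 1 and 65.0 in replicate 2. RpS5a had 188 in the pooled list, 98.9 in replicate 1 and 84.6 in replicate 2. RpL41, the smallest protein of the ribosome, had 186 in the pooled list, 98.3 in replicate 1 and 82.7 in replicate 2. RpL14 thus led these in the pooled list and in replicate 1 and was the lowest of them in replicate 2. The next genes were RpS28b (pooled signal 180), RpL28 (162), RpL22 (160), RpL23 (147), RpS4 (142), RpS21 (140), RpL17 (137), RpL18 (129), RpL30 (123), RpS16 (115) and RpS29 (111). Below 100 came RpS10b (pooled signal 99.1), RpS25 (93.4), RpL8 (91.7), RpL36 (88.2), RpS26 (86.6), RpS7 (84.2), RpS12 (83.8), RpL4 (82.9), RpLP0 (81.7), RpL13 (81.4), RpS15Aa (77.0) and RpL27A (69.6). Among these last genes are that of RpL8, a protein at the peptidyl transferase centre, and that of RpLP0, the base of the stalk that recruits elongation factors. RpL35 stood apart at the low end, with a pooled signal of 4.54 and rank 3794, and a stronger candidate peak at one of its TSSs (47.1) did not pass the threshold (IDR 0.0615).

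**Figure D1:**
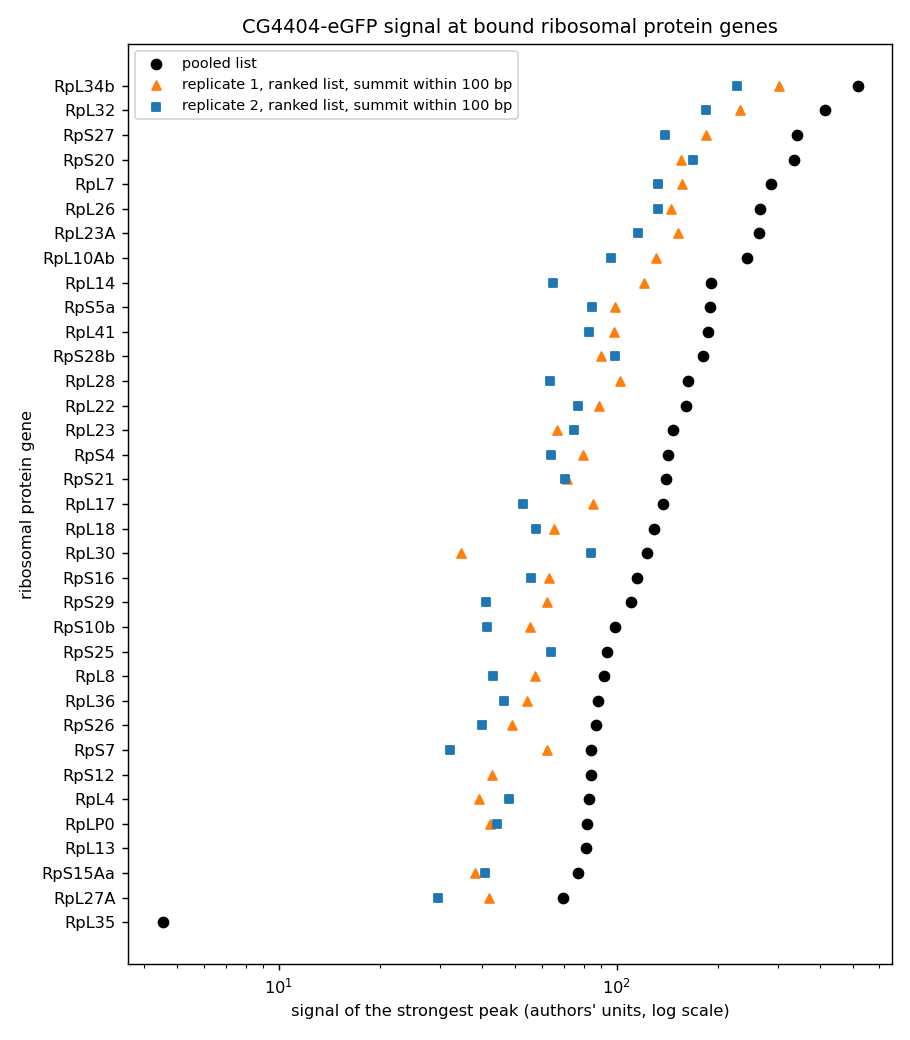
Signal of the strongest peak (horizontal, log scale, authors' units) at 35 of the 36 bound ribosomal protein genes (vertical, ordered by pooled signal). Black circles are the pooled list, orange triangles replicate 1 and blue squares replicate 2, the last 2 from ranked lists where a summit lay within 100 bp of the pooled one. Signals run from 4.54 at RpL35 to 517 at RpL34b.

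Both replicates had a candidate summit within 100 bp of the pooled one at 32 genes. Over these 32 genes the signal of replicate 1 had a median of 82.4 (34.7 to 304) and that of replicate 2 a median of 67.8 (29.7 to 227). Each replicate alone had a value at 33 genes. Spearman's rho between the replicates was 0.845 over the 32 genes, given as a description, since the points share the 2 libraries and were chosen for passing the pooled threshold. RpL30 had the lowest value of these genes in replicate 1 (34.7) but one above the median in replicate 2 (83.8), and its pooled value was 123. The matched summits of the replicates lay a median of 11 bp (replicate 1) and 21 bp (replicate 2) from the pooled summit, and at most 68 bp and 92 bp. Only summits within 100 bp were matched, so larger distances could not appear, and the pooled peaks come from the same 2 libraries.

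The bound ribosomal protein genes held moderate peaks of the list. Their median signal was 138 (interquartile range 87.8 to 197), beside 159 (102 to 288) over all 1984 bound protein-coding genes, and 21 of the 36 lay above the median of all peaks (118). Signals over 200 occurred at 25% of them and at 38.6% of all bound genes. None of them passed 1000, a value reached by 47 of the bound genes (2.37%). The large subunit had 22 of 53 genes bound (41.5%, median signal 154) and the small subunit 14 of 39 (35.9%, median signal 113). The shares of the subunits were close to each other, and both were above the 14.2% of all genes.

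The share of bound genes was highest on 3L and X. On 3L 10 of 14 ribosomal protein genes were bound (71.4%), beside 15.7% of all protein-coding genes of that arm, and on X there were 8 of 15 (53.3%), beside 15.0%. On 3R 8 of 23 were bound (34.8%, all genes 15.0%), on 2L 6 of 19 (31.6%, all genes 13.5%) and on 2R 4 of 20 (20%, all genes 12.3%). The 1 gene on chromosome 4, RpS3A, was not bound, and neither was any of the 80 protein-coding genes there. The order of the arms among ribosomal protein genes therefore spanned a wider range than that among all genes, over few genes per arm.

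Divergent partners were common. A divergent partner was a protein-coding gene on the opposite strand whose TSS lay up to 1000 bp upstream. Of the 92 genes 55 had one (59.8%), compared with 36.2% of all protein-coding genes. With a partner 27 of 55 were bound (49.1%), beside 27% of all divergent genes, and without one 9 of 37 (24.3%), beside 6.95% of all genes without a partner. The share of bound ribosomal protein genes was thus above that of all genes both with and without a partner. Of the bound ones 75% had a partner and of the 56 unbound ones 50%, while 68.8% of all bound genes had one. This depends on the distance allowed, since with TSSs at most 500 bp apart 17 of the 36 bound genes (47.2%) and 33.9% of the unbound ones had a partner, beside 59.3% of all bound genes. At most 300 bp apart there were 12 (33.3%), beside 38.2% of all bound genes. The median signal was 147 at the 27 genes with a partner and 123 at the 9 without, among which RpL23A had the highest (264).

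Between the closest TSSs of gene and partner lay the summits of 17 bound genes, and 8 more lay between the TSSs only when other annotated TSSs of the pair were counted. The partners of the strongest were CG8132 at RpL34b (closest TSSs 269 bp apart), CG7943 at RpL32 (309 bp), Nup37, a nuclear pore gene, at RpS27 (144 bp), CG17271 at RpS20 (333 bp) and Ripalpha at RpL7 (30 bp), where the summit was outside the closest TSSs, 72 bp from Ripalpha. RpL14 shares its upstream region with Nelf-E (127 bp), a subunit of the complex that holds RNA polymerase II near promoters. RpL28 is paired with eIF1 (381 bp), which acts in start codon selection, RpL36 with Mybbp1A (290 bp), a gene of the ribosome biogenesis list, and RpL13 with Dref (84 bp), the DRE-binding factor named above. The peak at RpL13 lay 182 bp upstream of that gene and only 98 bp downstream of a TSS of Dref. Its summit was thus outside the stretch between the 2 genes and by position nearer to Dref. In all, 9 of the 36 summits (25%) lay nearer to the TSS of another gene, against 30.2% over all bound genes, and 21 (58.3%) had another protein-coding TSS within 500 bp, against 62.3%. At those genes the peak cannot be given to one of the pair from position alone.

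The summits lay mostly upstream of the ribosomal protein gene. At 29 of the 36 genes (80.6%) the summit was upstream of the nearest TSS of the gene, beside 87.2% of all bound genes. In their own lists 26 of 29 summits were upstream in replicate 1 and 22 of 24 in replicate 2 (mean 90.7% ± 1.42, SD, n = 2). The median position was −67.5 bp (interquartile range −143 to −15.5), beside −141 bp (−226 to −83) over all bound genes. The farthest upstream were RpL35 (−330 bp), RpL18 (−323 bp) and RpL10Ab (−319 bp), and each of these summits was nearer to the TSS of another gene. RpL26 (90 bp), RpL7 (42 bp), RpS29 (26 bp), RpL4 (21 bp), RpS15Aa (14 bp), RpS7 (14 bp) and RpL36 (9 bp) had their summit downstream. This split depends on the TSS used. Measured from the canonical TSS, the summits of RpL26, RpS15Aa, RpS7 and RpL36 lay upstream and that of RpLP0 downstream. No summit lay more than 100 bp downstream of the nearest TSS of its gene, where 5.90% of all bound genes had theirs. The summits of RpS16 and RpLP0 counted as upstream of an internal TSS, although they fell inside the gene in 5′ untranslated sequence. The summit of RpL26 fell in an intron, 8 fell in annotated 5′ untranslated sequence and 27 outside the gene.

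**Figure D2:**
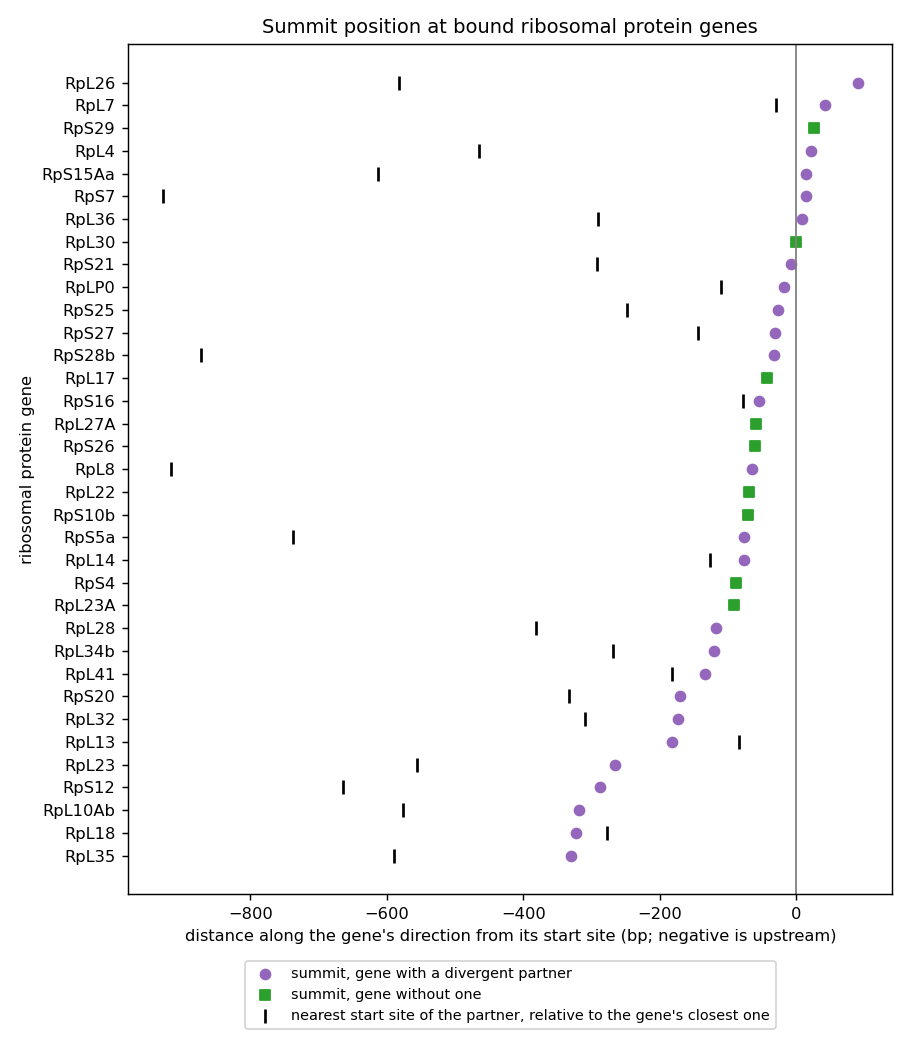
Distance of the strongest summit from the gene's nearest TSS (horizontal, bp, negative is upstream) at 35 of the 36 bound ribosomal protein genes (vertical, ordered by distance). Purple circles are genes with a divergent partner and green squares the 9 without, and black ticks give the distance between the closest TSSs of gene and partner, which for genes with several TSSs need not be the TSS used for the summit. Distances run from −330 at RpL35 to 90 bp at RpL26.

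Peak width limits how finely these positions are known. Of the 36 peaks, 27 had the width of 384 bp shared by 78.3% of the list, with the summit at the middle in all of the latter. The 9 narrower peaks had signals of 180 or more. Chromatin had been sheared to 200 to 800 bp. RpL28 and RpS7 each had 2 summits within 500 bp of a TSS, with signals of 162 and 75.6 at RpL28 and of 84.2 and 31.0 at RpS7.

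The 56 unbound genes included many with candidate peaks below the threshold. Ranked candidate peaks were common in general. The pooled ranked list held 128756 on the arms, and 71.9% of all protein-coding genes, bound ones included, had one at a TSS. A ranked candidate peak lay at a TSS of 40 of the 56 unbound ribosomal protein genes. The strongest had a median signal of 36.6 (4.53 to 82.6), beside 29.0 over all unbound genes that had one. RpL13A had the highest, with 82.6 in the pooled list, 28.0 in replicate 1 and 48.9 in replicate 2. Its IDR of 0.00253 passed the threshold of 0.01, yet the peak was not in the thresholded list, for a reason no source used here gives. RpL19 followed with 74.4 in the pooled list, 48.0 in replicate 1 and 27.7 in replicate 2 (IDR 0.0224). Others were RpL37A (pooled signal 64.6, IDR 0.769), RpL7A (64.1, 0.0149), RpL24 (55.5, 0.0651), RpS19a (55.3, 0.0279), RpL37-1 (54.9, 0.0334), RpL39 (54.0, 0.671), RpS6 (53.1, 0.0266) and RpL34a (52.4, 0.0215). The IDRs of RpL37A and RpL39 were thus far above those of the others listed. RpS6 is the small-subunit protein phosphorylated by S6 kinase. These values lay below those of most bound genes, and the pooled ranked list held no candidate peak at a TSS of 16 genes. Of those 16, 6 had a candidate in the ranked list of a replicate, among them RpS27A (48.2 in replicate 1), and 10 had none in any of these lists. Few genes lay near the limit of 500 bp. The bound summit farthest from its TSS was at 330 bp (RpL35) and the nearest one outside was at 846 bp (RpS19b).

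Where genes share a base symbol, such as RpL34a and RpL34b, they are called copies here, and at most 1 copy was bound. Whether each such gene, those named -like included, encodes a form of the same ribosomal protein was not checked. In 12 families with more than 1 copy, 25 genes in all, 8 families had 1 bound copy, 4 had none and 0 had more than 1. Of the 25 genes 8 were thus bound, beside 14.2% of all protein-coding genes. Whether binding at 1 copy goes with its absence at another was not tested. RpL34b had a pooled signal of 517, and RpL34a had 52.4. RpL7 had 287, and RpL7-like had no ranked peak in the pooled list and one of 11.2 in replicate 1. RpL10Ab had 244, and RpL10Aa had none in the pooled list and one of 13.8 in replicate 2. The bound copy was thus far above the other in each of these pairs. RpS5a had a pooled signal of 188 and RpS5b, the copy known for its role in the female germline, had 19.0. RpS28b had 180, beside 18.7 at RpS28a and 16.9 at RpS28-like. RpL22 had 160 and RpL22-like, a copy best known from the testis, had 8.92. The remaining pairs were closer, with 99.1 at RpS10b against 35.5 at RpS10a, and 77.0 at RpS15Aa against 43.0 at RpS15Ab. In replicate 1 the bound copy was also the higher one, with 304 against 34.8 for RpL34b and RpL34a and 38.1 against 26.0 for RpS15Aa and RpS15Ab.

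No copy of RpL24, RpL37, RpS14 or RpS19 was bound. Copies with 1 exon, the form left by insertion of a processed transcript, made up 5 of the 17 unbound copies and 0 of the 8 bound ones. Over all ribosomal protein genes, 0 of 6 with 1 exon and 36 of 86 with more (41.9%) were bound, beside 7.09% and 15.6% of all protein-coding genes of these kinds. Genes without a copy were bound in 28 of 67 cases (41.8%), beside 14.2% of all protein-coding genes. Reads from near-identical copies can map to either, and no source used here gives the authors' treatment of such reads.

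**Figure D3:**
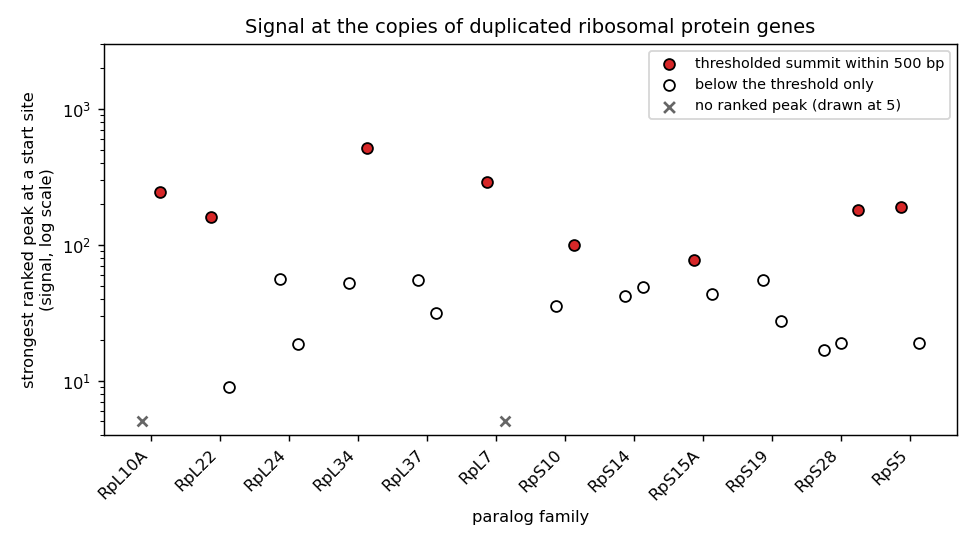
Signal of the strongest ranked pooled peak at a TSS (vertical, log scale) for each copy in the 12 families of duplicated ribosomal protein genes (horizontal, copies side by side in alphabetical order). Red circles are bound copies, open circles copies below the threshold, and crosses copies without a peak in the pooled ranked list, drawn at an arbitrary height of 5. Each of 8 families has 1 red circle, from 77.0 to 517, and the highest open circle in those families is at 52.4.

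The sequence within 100 bp of the summits was searched on both strands for motifs known from fly promoters. The DRE, TATCGATA, lay at 9 of the 36 summits (25%), compared with 72 of the 1451 other summits at protein-coding TSSs (4.96%) and 2.22% of all summits. Windows of equal width 500 bp away held it at 1 of the 36. The DREs of 4 genes are shown with 16 bases on either side, at RpL28 (chr3L:3223029-3223068, minus strand), RpS10b (chrX:19597938-19597977, plus), RpS7 (chr3R:30209004-30209043, minus) and RpS15Aa (chrX:13337690-13337729, minus), on the strand of the gene and with the DRE in capitals.
RpL28: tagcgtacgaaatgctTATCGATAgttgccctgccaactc
RpS10b: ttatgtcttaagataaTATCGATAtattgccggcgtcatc
RpS7: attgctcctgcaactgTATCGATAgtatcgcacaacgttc
RpS15Aa: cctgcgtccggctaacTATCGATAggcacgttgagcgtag
The middle of the DRE lay 29.5 bp from the summit at RpL28, 2.5 bp at RpS10b, 17.5 bp at RpS7 and 18.5 bp at RpS15Aa. Other DRE-bearing summits were those of RpS29, RpS25, RpL36 and RpL41.

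Over the 9 genes the DRE lay a median of 17.5 bp and at most 49.5 bp from the summit, and 7 of the 9 had a divergent partner. Their median signal was 99.1, beside 142 for the 27 genes without one, so the genes with a DRE had the lower median. RpL34b, RpL32, RpS27 and RpS20, the 4 genes of highest signal, had none within 100 bp. With windows of 50 bp the DRE was found at 8 of the 36 (22.2%), beside 1.72% of the other promoter summits, and with 200 bp at 11 (30.6%), beside 10.5%.

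The word CGATA, which every DRE contains, lay at 22 summits (61.1%, other promoter summits 33.8%). The core of the Ohler 1 motif, GGTCACAC, lay at 4 (11.1%, other promoter summits 2.00%) and the E-box CACGTG at 2 (5.56%, 2.00%). TATAAA was found at 9 (25%, other promoter summits 39.8%), GAGAG, the word bound by GAGA factor, at 5 (13.9%, 290 of the 1451 other promoter summits) and the GATA factor word TGATAA at 1 (2.78%, 16.5%). Of the words of 8 bases with the largest excess at all other summits over their flanks, ATTTAAAA lay at 3 of the 36 (8.33%, 11.2% of the other summits), TTAAAAAA at 2 (5.56%, 10.4%) and AAAAAAAT at 8 (22.2%, 13.0%). The DRE, CGATA and the Ohler 1 core thus stood at larger shares, and the TATA and GATA words at smaller shares, than at other promoter summits. These windows follow the summits, which lay nearer to the TSS (median −67.5 bp) than over all bound genes (−141 bp). They therefore cover different parts of the promoters, and the shares need not hold over whole promoters. The counts of the rarer words are too small for firm statements, and none of these differences was tested.

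**Figure D4:**
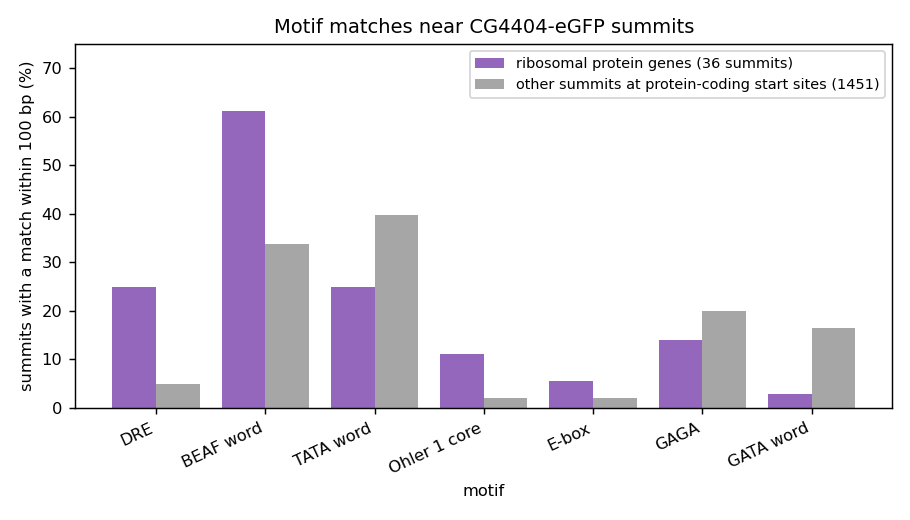
Share of summits with a match within 100 bp on either strand (vertical, %) for 7 motifs (horizontal), for the 36 summits of ribosomal protein genes (purple) and the 1451 other summits at protein-coding TSSs (grey). The DRE stands at 25% against 4.96% and the GATA word at 2.78% against 16.5%.

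Another word, TGGTATTT, was picked after the summits of these genes had been read, because with the DRE it was among the most frequent words of 8 bases there. It lay at 9 of the 36 summits (25%), compared with 2.07% of the other promoter summits. Its letters match part of the core promoter element known as Ohler 6. The 30 bases around it are shown for 5 genes, read on the strand of the word and with the word in capitals, at RpL30 (chr2L:19009316-19009345, minus strand), RpS21 (chr2L:2855993-2856022, minus), RpS25 (chr3R:11216356-11216385, minus), RpLP0 (chr3L:22076010-22076039, plus) and RpL27A (chr2L:4458364-4458393, minus).
RpL30: tacacgctaatTGGTATTTtaaccctattt
RpS21: ggcaaaggtttTGGTATTTatttaattgta
RpS25: tgaatagtgttTGGTATTTttatacactcc
RpLP0: cttaccggtttTGGTATTTtttcagaccgt
RpL27A: ttctgtccggaTGGTATTTcgtattttttg
RpL30 has the word 2 times within 100 bp of its summit, and at RpS21 it stands on the strand opposite to the gene. The other genes with it were RpL26, RpL14, RpS16 and RpL36. The 10 sites lay a median of 47 bp from the summit and at most 93.5 bp, and 6 were on the strand of the gene. At 16 of the 36 summits the word or the DRE was present, and at 2 both were. Because the word was picked from these same summits, its share there and this total are raised by the choice. The total was not counted at other promoter summits.

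The same words were counted in the promoters of bound and unbound genes. From 250 bp before to 50 bp after the canonical TSS, the DRE was found in 28 of the 92 promoters (30.4%), in 13 of the 36 bound (36.1%) and 15 of the 56 unbound genes (26.8%), beside 8.94% of all protein-coding genes. TGGTATTT was found in 9 of the bound (25%) and 10 of the unbound (17.9%), beside 4.98% of all. The word was picked at summits of the bound genes, which overlap these promoters in part. Its share among the bound is therefore raised by the choice, and the bound and unbound shares cannot be compared. The Ohler 1 core was found in 3 of the bound (8.33%) and 11 of the unbound (19.6%), beside 7.52% of all and 10.1% of all bound genes. TATAAA was found in 41.7% of the bound and 48.2% of the unbound. Over the 92 promoters it stood at 45.7%, close to the 45.3% of all, unlike at the summits. CGATA was at 77.8% of the bound, 66.1% of the unbound and 46.9% of all. In the same order, TGATAA was at 16.7%, 16.1% and 22.7%, GAGAG at 22.2%, 12.5% and 30.2%, and CACGTG at 11.1%, 10.7% and 4.25%. Of the ribosomal protein genes with a DRE there 46.4% were bound and of those without 35.9%, beside 20.4% and 13.6% over all protein-coding genes. The bound and unbound genes thus differed less from each other in the DRE than both did from all genes.

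The start of transcription itself was examined for the TCT initiator, taken as CTTT beginning within 2 bases of the canonical TSS. It is shown here for RpL34b (chr3R:9401193-9401222, minus strand), RpL14 (chr3L:8600986-8601015, plus) and RpL8 (chr3L:2587436-2587465, plus), as the 20 bases before the TSS and the first 10 of the transcript, with CTTT in capitals.
RpL34b: ctttctttctagtttcgtctCTTTgaggta
RpL14: ccgagctgtcaaaaaagttCTTTccttctc
RpL8: cctctaggatgtcttcctCTTTtcttttct
At RpL34b the canonical TSS lies downstream of the TSS nearest to the summit, where the stretch shown at the start ends. In this form the initiator was found at 18 of the 92 genes (19.6%), beside 2.28% of all protein-coding genes. It was present at 10 of the 36 bound (27.8%) and 8 of the 56 unbound genes (14.3%), and over all bound protein-coding genes at 2.27%. The count depends on the annotated base, since a TSS placed a few bases off would be missed.

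Other genes of protein synthesis were counted in the same way. Among translation initiation factors 8 of 44 were bound (18.2%), led by eIF6 (1196), which keeps the subunits from joining, eIF3c (379) and eIF5B (224), and of elongation and release factors 4 of 10, led by eEF1gamma (196), eRF3 (170) and eEF1alpha1 (159). Of ribosome biogenesis genes 6 of 26 were bound (23.1%), led by pes (612), Ns2 (471) and l(3)72Dn (263), and of growth regulators 3 of 16, namely M1BP (196), Irbp18 (188) and Dref (81.4). The ribosomal proteins of mitochondria had 21 bound genes of 73 (28.8%), with a median signal of 187, beside 138 at the cytosolic genes. The genes of M1BP and Dref, whose products bind elements of ribosomal protein promoters, were thus both called bound, Dref through the peak it shares with RpL13. In the same way eIF1 was counted through the peak of RpL28 and Mybbp1A through that of RpL36, so these lists are not independent of the ribosomal protein genes. All these shares are to be read beside the 14.2% of all protein-coding genes, and the differences between the lists were not tested.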

How the data were processed

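ChIP-seq peak lists of 2 biological replicates of GFP-tagged CG4404 embryos were used. Per the file headers, the authors worked on the dm6 assembly and deposited thresholded and ranked peak lists for each replicate and for the pooled replicates. The aligner and peak caller are not stated in the sources used here and the read depth is unknown, so the number of peaks limits the precision. The deposited signal of a peak (column 7) is the authors' own value, used only within a list. Ranked lists as deposited hold the IDR of each candidate as its −log10, and no thresholded peak had an IDR above 0.01, taken here as the authors' limit. The thresholded lists held 3892 peaks (pooled), 3741 (conservative), 2982 (replicate 1) and 2539 (replicate 2). Another pooled ranked list was not used here.

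Gene models came from Ensembl annotation of BDGP6, the same assembly as dm6, and sequences were cut from its genome. Positions are 1-based. Peaks off the 7 arms were left out. For each gene the strongest peak whose summit lay within 500 bp of any TSS was taken. Replicate signals are those of the strongest ranked peak with a summit within 100 bp. Python 3.11.15, pandas 2.3.3 and numpy 2.4.6 were used. Gene assignment, distances and word search were checked on simulated summits. Every bound gene may be named, with the 12 of highest signal in full (1 of them is counted but not reported by name here), and up to 10 unbound genes by ranked signal, copies and divergent partners of bound genes, and up to 3 genes a list.

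The genes and lists were chosen with earlier results of these data known. With 1 group and no control, no test was made and all comparisons are descriptions. Of 18 growth regulator entries, Tor and Larp matched no symbol. The alternatives tried were the conservative list, a stricter IDR, each replicate alone, other windows and other definitions of a TSS or of a partner.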

Additional observations from a re-analysis of the deposited data

How the results depend on the processing

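The count of 36 bound ribosomal protein genes stayed between 25 and 37 under the conservative list, an IDR of 0.001 or less, windows of 250 bp and 1000 bp, peaks that cover a TSS and the gene's 5′ end as its only TSS. It was 21 with peaks that overlap those of both replicates, beside 9.25% of all genes. With each replicate's own list in place of the pooled one it was 24 to 29, the genes with a summit upstream 22 to 26 (pooled 29) and those with a divergent partner 20 to 22 (pooled 27). At an IDR of 0.001 or less, 25 genes were bound, beside 10.6% of all genes, and their median signal was 180 in place of 138, since that limit removes weak peaks. With divergent TSSs at most 500 bp apart 17 bound genes had a partner, and at most 300 bp apart 12. When the peak itself had to cover a TSS, 26 genes were bound, beside 8.09% of all genes. RpS20, RpL14, RpL23A, RpL26 and RpL10Ab were among the 10 lost. The number of genes that shared a peak with both replicates was 21 with an overlap of at least 50% of the pooled width and 20 by summits within 100 bp. Among the motifs, windows of 50 bp in place of 100 bp left CGATA at 14 summits, TATAAA at 4, GGTCACAC at 2, CACGTG at 1, GAGAG at 3 and TGATAA at 0, and windows of 200 bp gave TATAAA at 15, CACGTG at 6 and TGATAA at 11. TGATAA was then at 30.6% of these summits and 29.4% of the other promoter summits, and with 50 bp at 0 and 8.48%, shares that were added after seeing the data. No paired analysis was possible because there is 1 group. Depth is unknown, and a gene without a peak is not shown to be unbound.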
